A study of Mus musculus with 6 samples.

Results

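The 10 genes described here report on blood vessels in muscle: the ligands Vegfa and Vegfb, their receptors Kdr and Flt1, the angiopoietins Angpt1 and Angpt2 with their receptor Tek, the endothelial junction proteins Pecam1 and Cdh5, and the oxygen-sensitive transcription factor Hif1a. They were chosen by gene symbol as a readout of capillaries and of the signals that make them grow. Non-control probes whose transcript identifier maps to these symbols were taken, which gave 16 of 56605 probes, and all 10 genes were among the 25005 genes and transcripts tested.

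The arrays came from the quadriceps of male AR97Q mice, a transgenic model of spinal and bulbar muscular atrophy that carries the human androgen receptor with 97 CAG repeats on a C57BL/6J background. The exercise group ran on a forced wheel at 5 m/min for 60 min a day, 5 days a week, for 4 weeks from 5 weeks of age, and was killed the day after the last bout at 9 weeks of age. The sedentary group was of the same genotype, sex and age and did not run, so every mouse on the arrays carried the mutant receptor and no wild-type muscle is compared here. Each group had 3 mice with 1 array each, and the comparison asks how the muscle transcriptome of these mice differed after the exercise period.

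Capillaries run along every muscle fibre, and endurance exercise is a classic stimulus for their growth. Muscle fibres and other cells secrete VEGF-A, which signals mainly through KDR (VEGFR2) on endothelial cells, while FLT1 (VEGFR1) binds VEGF-A and VEGF-B and limits how much ligand reaches KDR. Angiopoietin 1 from perivascular cells activates the receptor TEK (Tie2) and stabilises vessels, angiopoietin 2 from endothelial cells can oppose it, and PECAM1 and VE-cadherin (Cdh5) hold endothelial cells together. HIF-1α switches on Vegfa when oxygen is short, and its amount is controlled mostly at the protein, through prolyl hydroxylases, so that its mRNA is no measure of its activity.

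Values are log2 signals minus the 75th percentile of their own array, so that 0 is the signal that 75% of the probes lie below, and a change of 1 is a 2-fold change against it. A gene was called when limma's test gave an adjusted p under 0.05 after Benjamini-Hochberg adjustment over all 25005 genes and transcripts. Each gene is represented by its brightest probe. Probe brightness depends on the probe, so levels are compared between arrays and never between genes. Each array had 54.6% to 59.9% of its probes well above background and 0 saturated spots. The 75th percentile itself was 251 to 257 on the exercise arrays and 310 to 384 on the sedentary arrays, in units of processed signal. All 6 arrays were on 1 slide, where exercise 1 to 3 and sedentary 1 shared a strip and sedentary 2 and 3 lay on the other strip.

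In these muscles Vegfa was higher after exercise on its brightest probe, relative to the rest of the array, though its probes disagreed. The endothelial receptors and junction proteins gave changes near 0 that did not pass the test. Of the 10 genes, Vegfa was called higher and none was called lower, beside 11.5% of all genes called higher and 6.12% called lower. At an unadjusted p under 0.05, 2 of the 10 genes were higher, Vegfa and Vegfb, and 1 was lower, Hif1a. Beside 37% of all genes in either direction, this count is not above the background. Vegfa, Vegfb and Hif1a were also the 3 of 10 genes for which no exercise array fell within the sedentary range. This share is not above the 43.2% of all genes without overlap. No member reached the study's own fold minimum (a log2 fold change of 1 or more in size), which 2.78% of all genes passed together with the adjusted p. The median log2 fold change of the 10 genes was 0.05, and that of all genes was 0.03. Leaving out exercise 1, 2 or 3 or sedentary 2 or 3, each in turn, left 0 of all genes called higher and 0 to 1 called lower, so the calls given for single genes rest on each of these 5 arrays. Without sedentary 1, 3476 of all genes were called higher and 2060 lower.

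**Figure D1:**
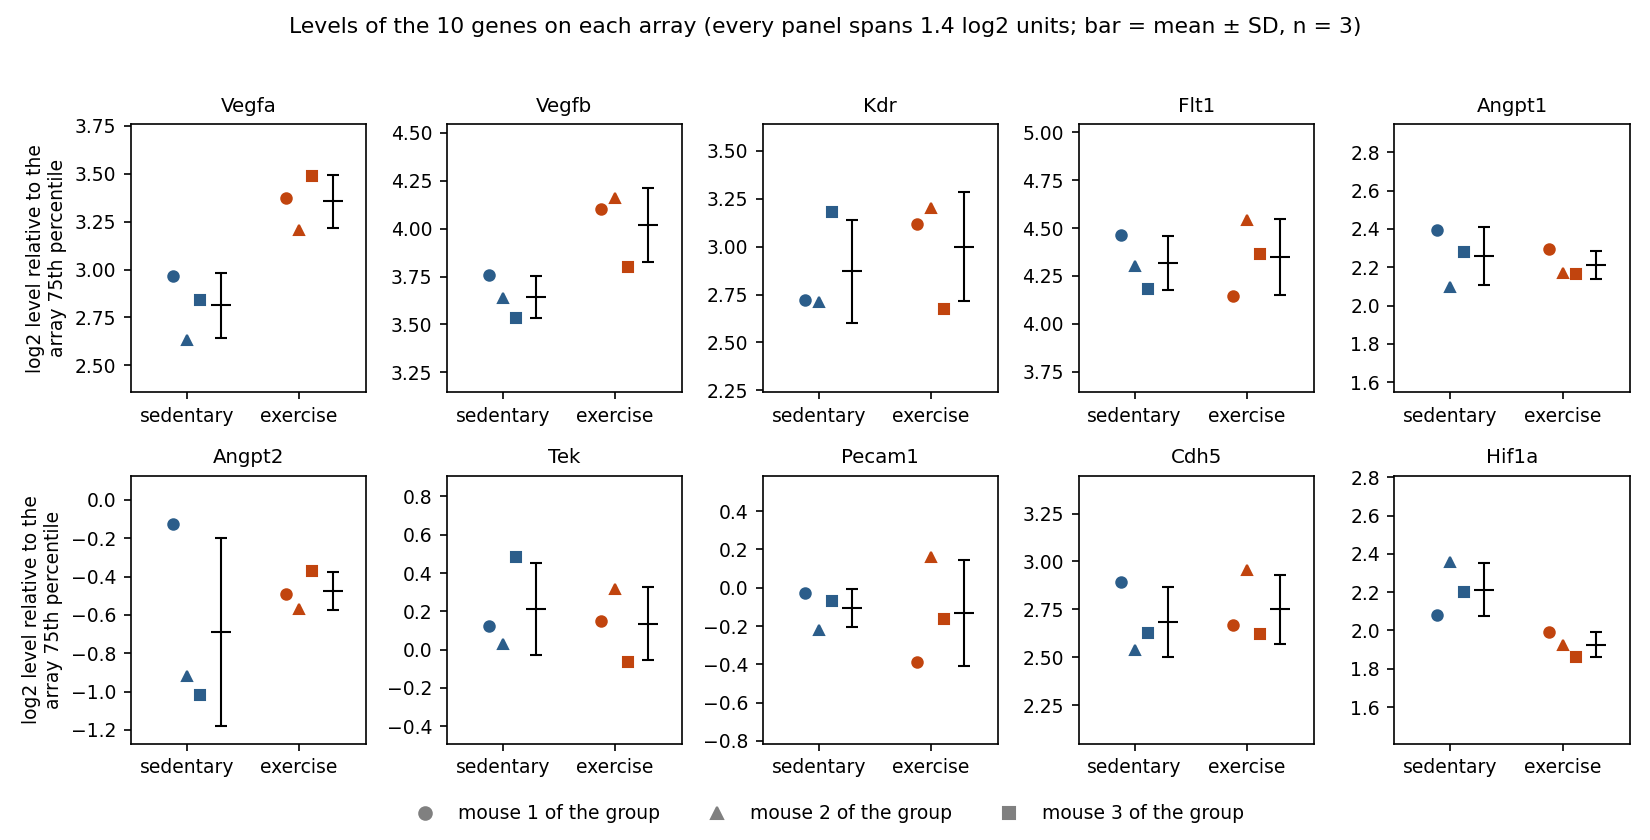
Each panel shows 1 gene, with its log2 level relative to the array 75th percentile on the vertical axis and a point for each mouse (blue, sedentary; orange, exercise); the bar is the mean ± SD of 3 mice and every panel spans the same height. The exercise points lie above all sedentary points for Vegfa and Vegfb and below them for Hif1a, and the points of the other 7 genes overlap.

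Sequences before transcript starts of the 3 genes whose groups did not overlap are shown because the HIF pathway is known to act on Vegfa through short DNA motifs. They are the 250 bases before a transcript start in RefSeq (GRCm38.p6), 5′ to 3′ on the gene's strand, with matches to the HIF core letters ACGTG or GCGTG on either strand in capitals. The table used holds windows for 6 of the 10 genes (Vegfa, Vegfb, Kdr, Flt1, Tek and Hif1a), and 38.6% of all 32851 windows hold at least 1 match.
Vegfa, outer start, chr17:46032378-46032627, minus strand: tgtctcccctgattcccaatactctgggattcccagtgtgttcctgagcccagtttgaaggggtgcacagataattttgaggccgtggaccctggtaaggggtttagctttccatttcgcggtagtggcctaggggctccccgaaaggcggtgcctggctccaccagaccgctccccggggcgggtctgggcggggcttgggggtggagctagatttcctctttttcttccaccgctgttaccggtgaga
Vegfa, inner start, chr17:46025164-46025413, minus strand: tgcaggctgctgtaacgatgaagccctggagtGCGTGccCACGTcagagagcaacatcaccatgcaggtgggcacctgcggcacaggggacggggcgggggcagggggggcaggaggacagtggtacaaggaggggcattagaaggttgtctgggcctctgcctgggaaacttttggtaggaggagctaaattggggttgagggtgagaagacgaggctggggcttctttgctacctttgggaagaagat
Vegfb, chr19:6987652-6987901, minus strand: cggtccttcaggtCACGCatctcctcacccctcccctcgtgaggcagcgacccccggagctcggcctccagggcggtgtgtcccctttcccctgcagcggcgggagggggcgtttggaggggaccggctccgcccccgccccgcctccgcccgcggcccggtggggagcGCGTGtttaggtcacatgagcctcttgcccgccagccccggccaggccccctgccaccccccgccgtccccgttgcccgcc
Hif1a, chr12:73907617-73907866, plus strand: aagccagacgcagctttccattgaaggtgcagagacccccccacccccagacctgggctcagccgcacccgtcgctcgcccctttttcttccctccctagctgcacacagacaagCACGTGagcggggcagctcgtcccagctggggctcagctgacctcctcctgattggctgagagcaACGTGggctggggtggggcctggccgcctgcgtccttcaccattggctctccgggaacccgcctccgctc
The outer Vegfa window and that of Vegfb lie just before the annotated gene, whereas the inner Vegfa window and those of Hif1a, Kdr and Flt1 lie inside it and that of Tek runs across its start. The outer Vegfa window, which lies before the gene, held 0 matches. The inner Vegfa window held 2, which are letters within the gene and not upstream of it. Whether these 2 matches lie in coding sequence was not analysed here. The window of Vegfb held 2 matches. That of Hif1a held 3, of which a pair is the same palindrome read on both strands (CACGTG, which is also an E-box). Of the receptors, Kdr had 2 matches, Flt1 had 1 and Tek had 0. A match describes letters in this window and shows no binding, and the absence of letters in this window says nothing about sites elsewhere in the gene.

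Vegfa was measured at 3.37, 3.21 and 3.49 on the exercise arrays and at 2.97, 2.63 and 2.84 on the sedentary arrays. All exercise mice lay above all sedentary mice. The means were 3.36 ± 0.14 and 2.81 ± 0.17 (SD, n = 3 each), a 1.46-fold higher level with a log2 fold change of 0.54 (SE 0.13, 95% confidence interval 0.24 to 0.85, limma adjusted p = 0.037). The gap was 0.39 against sedentary 1, which shared the strip with the exercise arrays, and 0.62 against sedentary 2 and 3. With the strip as a block the limma adjusted p was 0.277. The call was kept without sedentary 1 and lost without any other single array, where the log2 fold change stayed between 0.45 and 0.62. On the processed signals before scaling, the same probe read 2659, 2369 and 2810 on the exercise arrays and 2427, 2296 and 2754 on the sedentary arrays, which overlap. The separation therefore holds relative to the rest of each array, and the exercise arrays were the dimmer ones.

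Vegfa was also read by 3 further probes, and the probes disagreed. Probe A_52_P249424 gave 0.99, 0.91 and 1.11 on the exercise arrays and 0.81, 0.24 and 0.19 on the sedentary arrays, again without overlap, with a log2 fold change of 0.59 (limma adjusted p over all probes = 0.071). Probe A_51_P482552 gave 2.01, 1.52 and 2.05 on the exercise arrays and 1.90, 1.72 and 1.94 on the sedentary arrays. Its log2 fold change was 0.01 (limma adjusted p over all probes = 0.978). The dimmest probe, A_55_P2741794, gave a log2 fold change of 0.05 (limma adjusted p over all probes = 0.835). So the higher level showed on 2 of 4 probes, and with the mean of the 4 probes the log2 fold change was 0.30 (limma adjusted p = 0.158). The position of a probe within the transcripts is not given in the files, so which Vegfa transcripts each probe reads was not analysed here.

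**Figure D2:**
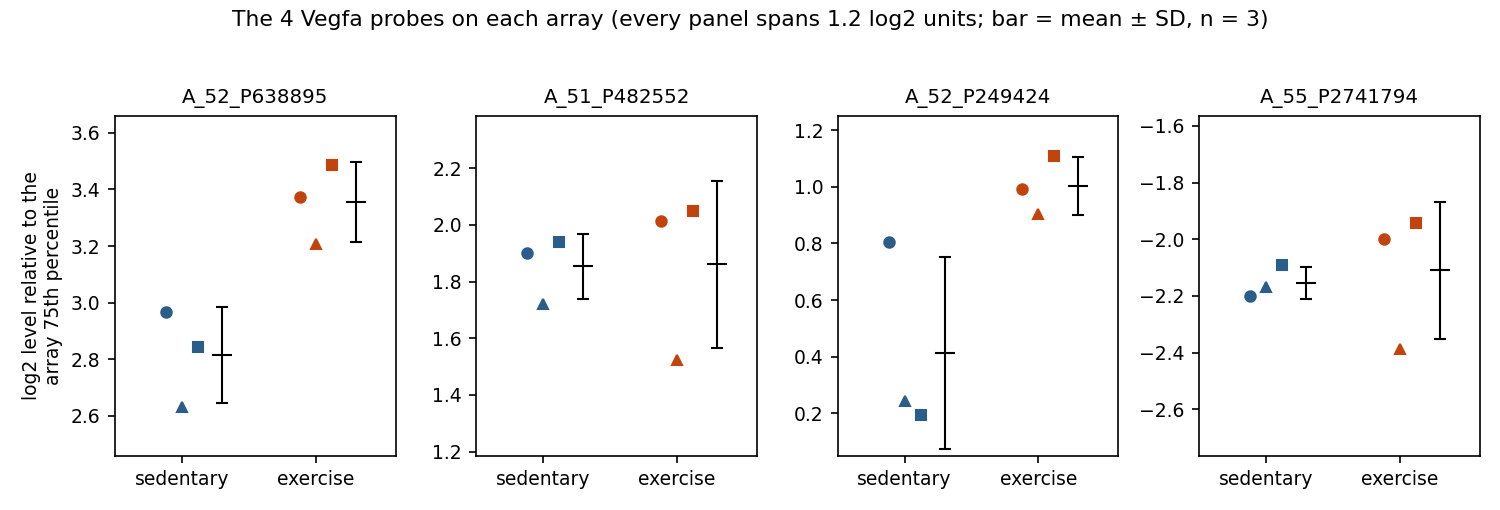
Each panel shows 1 of the 4 Vegfa probes, with its log2 level relative to the array 75th percentile on the vertical axis and a point for each mouse (circle, triangle and square for mice 1 to 3 of a group; bar, mean ± SD). The groups separate on A_52_P638895 and A_52_P249424, with log2 fold changes of 0.54 and 0.59, and overlap on A_51_P482552 and A_55_P2741794.

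Vegfb, a VEGF family ligand of FLT1 that is abundant in heart and oxidative muscle, was measured at 4.10, 4.16 and 3.80 in the exercise group and at 3.76, 3.64 and 3.53 in the sedentary group. There was no overlap, although exercise 3 lay only just above sedentary 1. The level was 1.30-fold higher, with a log2 fold change of 0.38 (SE 0.13, 95% confidence interval 0.07 to 0.69), and it missed the threshold (limma adjusted p = 0.086).

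The receptors of these ligands gave no such separation. Kdr, the main signalling receptor, was measured at 3.12, 3.20 and 2.68 in the exercise group and at 2.72, 2.71 and 3.18 in the sedentary group. A high and a low level occurred in each group, and the log2 fold change of 0.13 (95% confidence interval -0.35 to 0.60, limma adjusted p = 0.664) was smaller than the spread within a group (SD 0.28 and 0.27). The signal of the other Kdr probe stayed at background level on all 6 arrays.

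Flt1, which acts largely as a decoy for VEGF-A, was measured at 4.15, 4.54 and 4.37 in the exercise group and at 4.47, 4.30 and 4.18 in the sedentary group. The groups covered nearly the same range, with a log2 fold change of 0.03 (95% confidence interval -0.29 to 0.36, limma adjusted p = 0.878). Its other 2 probes, A_55_P2735980 and A_55_P2800423, gave log2 fold changes of -0.05 and -0.03, so the 3 Flt1 probes gave alike values near 0.

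Of the angiopoietins, Angpt1 was measured at 2.30, 2.17 and 2.16 in the exercise group and at 2.40, 2.10 and 2.28 in the sedentary group. This was among the tighter of the 10 genes, with a log2 fold change of -0.05 (95% confidence interval -0.31 to 0.21, limma adjusted p = 0.768). Angpt2 was measured at -0.49, -0.57 and -0.37 in the exercise group and at -0.12, -0.92 and -1.02 in the sedentary group.

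The sedentary group was split for Angpt2, since sedentary 1 lay above every exercise array and sedentary 2 and 3 below every exercise array. Its log2 fold change was 0.21 with the widest interval of the 10 genes (95% confidence interval -0.38 to 0.80, limma adjusted p = 0.561). Sedentary 1 decided this value, as without it the log2 fold change was 0.49 (limma adjusted p = 0.030) and against it alone it was -0.35. Tek, the receptor of both angiopoietins, was measured at 0.15, 0.32 and -0.06 in the exercise group and at 0.12, 0.03 and 0.48 in the sedentary group, which overlap (log2 fold change -0.08, 95% confidence interval -0.46 to 0.31, limma adjusted p = 0.754).

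The junction proteins are made by endothelial cells of nearly all vessels, so they stand closest to a measure of how much endothelial RNA the muscle held. Pecam1, which platelets and leukocytes also express, was measured at -0.39, 0.16 and -0.16 in the exercise group and at -0.03, -0.22 and -0.07 in the sedentary group. The exercise arrays enclosed the sedentary ones, and the log2 fold change was -0.03 (95% confidence interval -0.40 to 0.35, limma adjusted p = 0.920). Cdh5, VE-cadherin, was measured at 2.67, 2.96 and 2.62 in the exercise group and at 2.89, 2.54 and 2.63 in the sedentary group, which overlap (log2 fold change 0.06, 95% confidence interval -0.28 to 0.40, limma adjusted p = 0.767).

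Over Kdr, Flt1, Tek, Pecam1 and Cdh5, the log2 fold changes ran from -0.08 to 0.13, and their 95% confidence intervals together spanned -0.46 to 0.60, which is 0.725-fold to 1.52-fold. Each gene's own interval gives the changes that its values, from 3 arrays per group, do not exclude. A p above the threshold does not show equal levels. Without scaling between arrays the median of all genes lay at -0.45, and Flt1, Pecam1 and Cdh5 were then called lower together with 11280 of all genes. In bulk muscle RNA, fewer cells of a type and less RNA per cell cannot be told apart. Values relative to the array also cannot separate a change in vessels from a change in the muscle RNA around them.

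**Figure D3:**
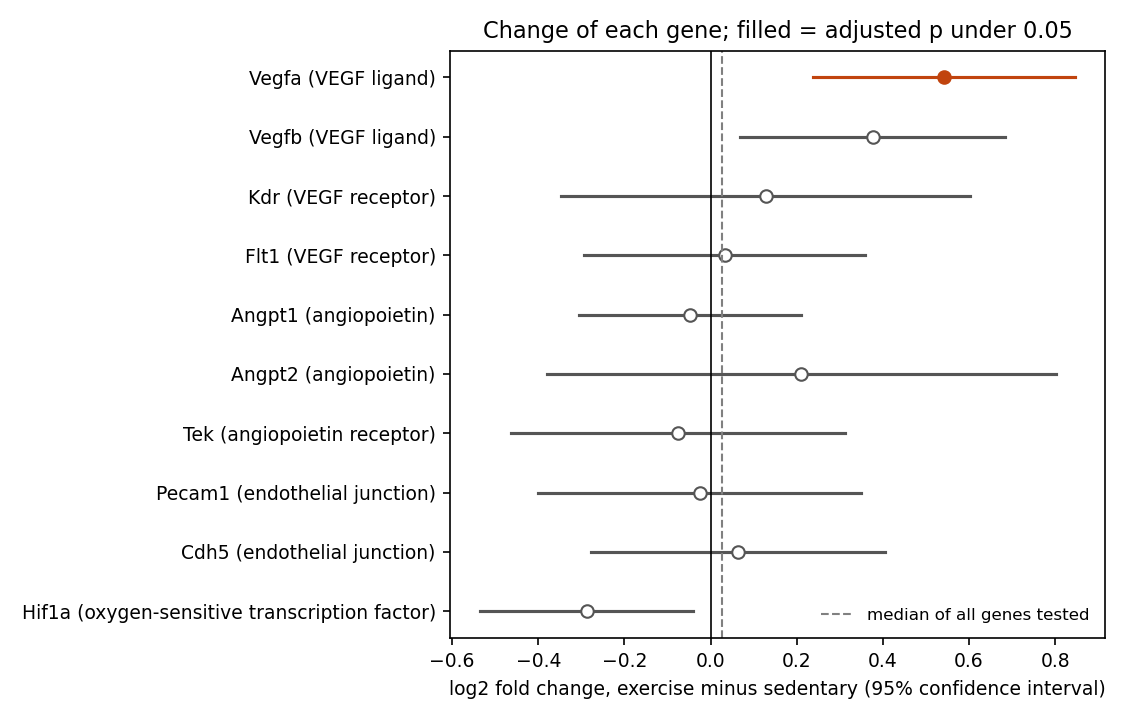
Points are log2 fold changes (exercise minus sedentary) of the 10 genes with lines for the 95% confidence intervals; the filled point marks a limma adjusted p under 0.05 and the dashed line is the median of all genes tested. Vegfa (0.54) is filled, the intervals of Vegfa, Vegfb and Hif1a leave out 0, and those of the other 7 genes include it.

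Hif1a was measured at 1.99, 1.93 and 1.86 in the exercise group and at 2.08, 2.36 and 2.20 in the sedentary group. The highest exercise array lay below the lowest sedentary one. The level was 0.819 times that of the sedentary group, with a log2 fold change of -0.29 (SE 0.10, 95% confidence interval -0.53 to -0.04), and it missed the threshold (limma adjusted p = 0.097). The gap was -0.16 against sedentary 1 and -0.35 against sedentary 2 and 3.

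Among 10 tested regulators of the HIF pathway, 2 rose and 0 fell by the limma test, beside 11.5% of all genes called higher and 6.12% called lower. At an unadjusted p under 0.05 the counts were 4 and 0, a share near the 37% of all genes in either direction. The 2 that rose were both prolyl hydroxylases, the enzymes that mark HIF-1α for destruction when oxygen is present. Egln1 was measured at 5.50, 5.52 and 5.65 in the exercise group and at 5.14, 4.97 and 4.95 in the sedentary group (log2 fold change 0.54, SE 0.10, limma adjusted p = 0.025). Egln2 was measured at 6.04, 5.98 and 6.09 in the exercise group and at 5.68, 5.51 and 5.37 in the sedentary group (log2 fold change 0.51, SE 0.11, limma adjusted p = 0.030). For both enzymes the groups stood well apart, whereas those of Egln3, the other prolyl hydroxylase in the list, overlapped (log2 fold change 0.11, limma adjusted p = 0.453). Arnt, also in the list, was not called on the probe that represents it (log2 fold change -0.12, limma adjusted p = 0.398). Its other probe, A_55_P2814820, gave -0.57 (limma adjusted p over all probes = 0.033).

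Of 18 genes known as HIF-1 targets, 14 had a log2 fold change above 0 and 4 below it (median 0.22). At an unadjusted p under 0.05, 6 were higher and 1 lower, a share near the 37% of all genes in either direction. By the limma test 3 rose and 1 fell, near the shares of all genes called higher (11.5%) and lower (6.12%). Those that rose are glycolysis genes that muscle fibres also express in quantity: Pfkfb3, which sets the pace of glycolysis, by a log2 fold change of 1.71 (SE 0.32, limma adjusted p = 0.026), Ldha, lactate dehydrogenase A, by 0.76 (SE 0.16, limma adjusted p = 0.029), and Pgk1, phosphoglycerate kinase, by 0.54 (SE 0.10, limma adjusted p = 0.026). Slc2a1, the glucose transporter GLUT1, fell by 0.80 on the log2 scale (SE 0.16, limma adjusted p = 0.029). It was measured at 1.84, 1.88 and 1.95 in the exercise group and at 2.36, 2.73 and 2.97 in the sedentary group. The counts use 1 probe per gene. Car9 was not called on the probe that represents it (0.78, limma adjusted p = 0.097), but A_52_P610923 gave 0.74 (limma adjusted p over all probes = 0.035). Pdk1 was not called either (-0.19, limma adjusted p = 0.206), and its other probes disagreed. A_55_P2590803 gave -0.49 (limma adjusted p over all probes = 0.048), A_51_P406429 gave -0.12 and A_55_P2907580 gave 0.23. Vegfa, itself a HIF-1 target, is not counted in this list.

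Among 27 tested genes of VEGF and angiopoietin signalling outside the 10 members, 1 rose and 2 fell, and the median log2 fold change was -0.02. Of all genes, 11.5% were called higher and 6.12% lower. At an unadjusted p under 0.05, 1 of the 27 was higher and 3 were lower, beside 37% of all genes in either direction. These counts are not above the background. Nrp2, a co-receptor for VEGF ligands, was measured at 6.10, 6.13 and 6.17 in the exercise group and at 5.84, 5.37 and 5.57 in the sedentary group (log2 fold change 0.54, SE 0.13, limma adjusted p = 0.042). Its other probe, A_52_P93910, gave -0.05 (limma adjusted p over all probes = 0.854), so the rise rests on 1 of 2 probes.

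Vegfd, a ligand of the lymphatic receptor FLT4, was measured at 1.54, 2.01 and 1.75 in the exercise group and at 2.33, 2.67 and 2.44 in the sedentary group. No exercise array reached the sedentary range, and it fell by 0.71 on the log2 scale (SE 0.15, limma adjusted p = 0.033), with its other probe at -0.94 (limma adjusted p over all probes = 0.024). Among the members' own family, Vegfd thus fell on both its probes. Vegfa rose on its brightest probe, but its probes disagreed, and their mean gave 0.30 (limma adjusted p = 0.158). Thbs2, the matrix protein thrombospondin 2 that restrains vessel growth, was measured at -0.35, -0.29 and 0.01 in the exercise group and at 0.47, 0.29 and 0.31 in the sedentary group, and fell by 0.57 on the log2 scale (SE 0.12, limma adjusted p = 0.033). Angpt4, named after its values were seen, stayed at background level on the exercise arrays and was well above it on all 3 sedentary arrays, which makes it at least 1.62-fold lower, and the fit gave a limma adjusted p = 0.088.

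**Figure D4:**
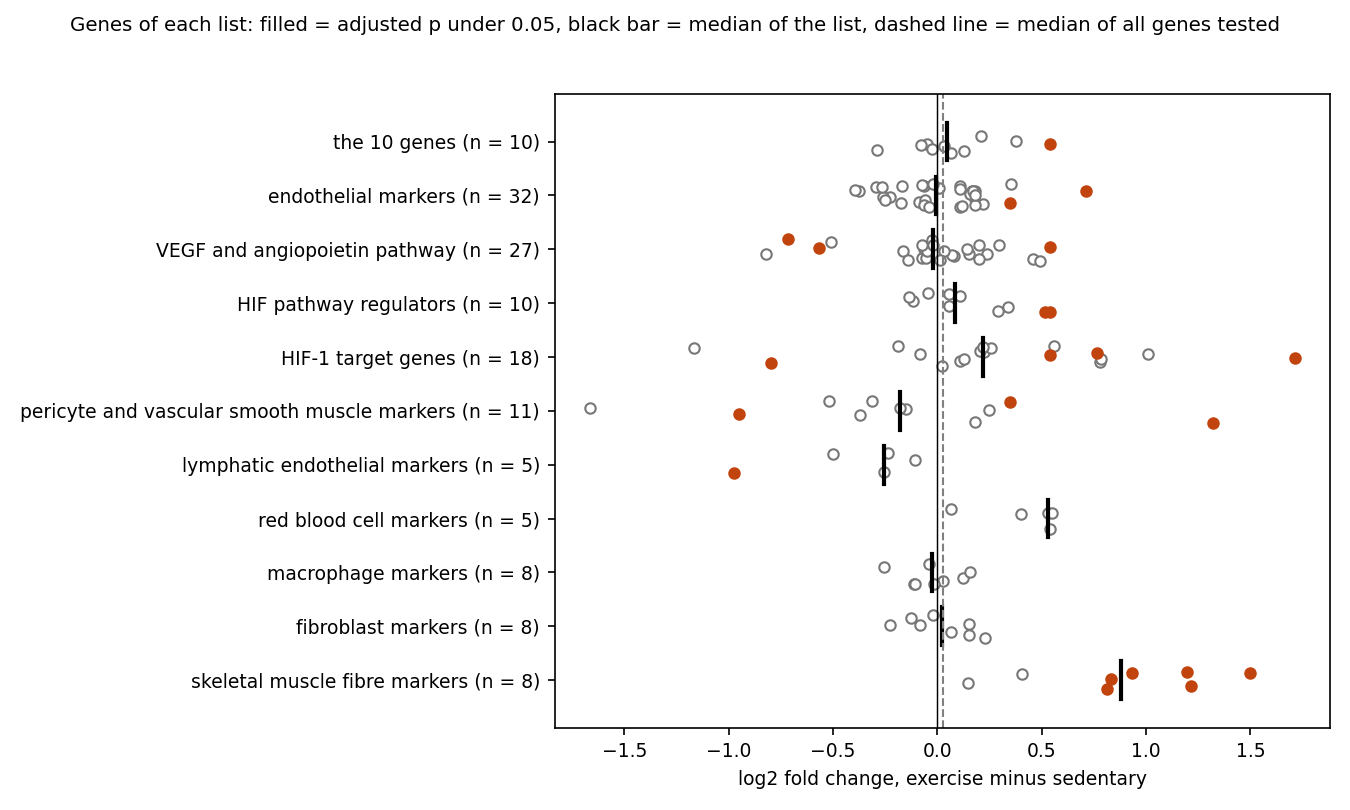
Each point is a gene's log2 fold change (exercise minus sedentary) in the 10 members and in lists of related genes and cell type markers; filled points passed a limma adjusted p under 0.05, black bars are list medians and the dashed line is the median of all genes tested. Endothelial markers lie around 0 (median -0.00), whereas 6 of 8 skeletal muscle fibre markers are filled and lie to the right (median 0.88).

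A wider list of 32 endothelial markers was read beside the junction proteins and receptors. All 32 were tested, 2 rose and 0 fell by the limma test, 1 was lower at an unadjusted p under 0.05, and 16 had a log2 fold change above 0 and 16 below it (median -0.00). Rgcc, a cell cycle regulator that marks capillary endothelium, was measured at 5.56, 5.95 and 6.09 in the exercise group and at 5.12, 5.07 and 5.28 in the sedentary group, and rose by a log2 fold change of 0.71 (SE 0.16, limma adjusted p = 0.033). Mcam, an adhesion molecule of endothelial cells and pericytes, rose by 0.35 (SE 0.09, limma adjusted p = 0.044). The counts use 1 probe per gene, and the Gja5 probes disagreed. The probe that represents Gja5 gave -0.17 (limma adjusted p = 0.482), and A_55_P2717381 gave 0.54 (limma adjusted p over all probes = 0.045).

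Vwf, von Willebrand factor, is named after its values were seen, as the only one of the 32 markers whose exercise arrays all lay below the sedentary ones. It read 2.62, 2.75 and 2.74 in the exercise group against 3.15, 3.29 and 2.85 in the sedentary group (log2 fold change -0.40, limma adjusted p = 0.087). The exercise and sedentary arrays overlapped for 29 of the 32 markers. The 3 without overlap and the 2 called higher are both fewer than the shares over all genes (43.2% and 11.5%) would give.

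Within each group the endothelial genes tended to be high or low on the same arrays. Exercise 2 was the highest exercise array for all 5 of Kdr, Flt1, Tek, Pecam1 and Cdh5 and for 25 of the 32 other endothelial markers (78.1%), beside 32.0% of all genes tested. Sedentary 1 was the highest sedentary array for 26 of the 32 markers (81.2%), beside 39.1% of all genes, but for 3 of the 5 members, since Kdr and Tek were highest on sedentary 3. The mean of the 32 markers, centred per gene, was -0.16, 0.22 and -0.04 on exercise 1 to 3 and 0.16, -0.03 and -0.16 on sedentary 1 to 3. Other lists shared this pattern in part. Macrophage markers also had their highest means on exercise 2 (0.13) and sedentary 1 (0.16). Fibroblast markers had theirs on exercise 1 (0.10) and sedentary 1 (0.20). Of the muscle fibre markers, 87.5% were highest on sedentary 1 within their group, but 12.5% on exercise 2.

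Red blood cell markers, which depend on how much blood stayed in the sample, were 0.00, 0.39 and 0.23 on exercise 1 to 3 and 0.49, -0.44 and -0.67 on sedentary 1 to 3. Exercise 2 and sedentary 1 were the highest arrays of their groups for the red blood cell markers and for the mean of the 32 endothelial markers. The summed level of the 5 red blood cell genes, as a multiple of the array 75th percentile, ranged from 455 to 638 in the exercise group and from 273 to 574 in the sedentary group. Of these 5 genes 0 passed the limma test and 0 had an unadjusted p under 0.05, and their part in the endothelial values was not tested.

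**Figure D5:**
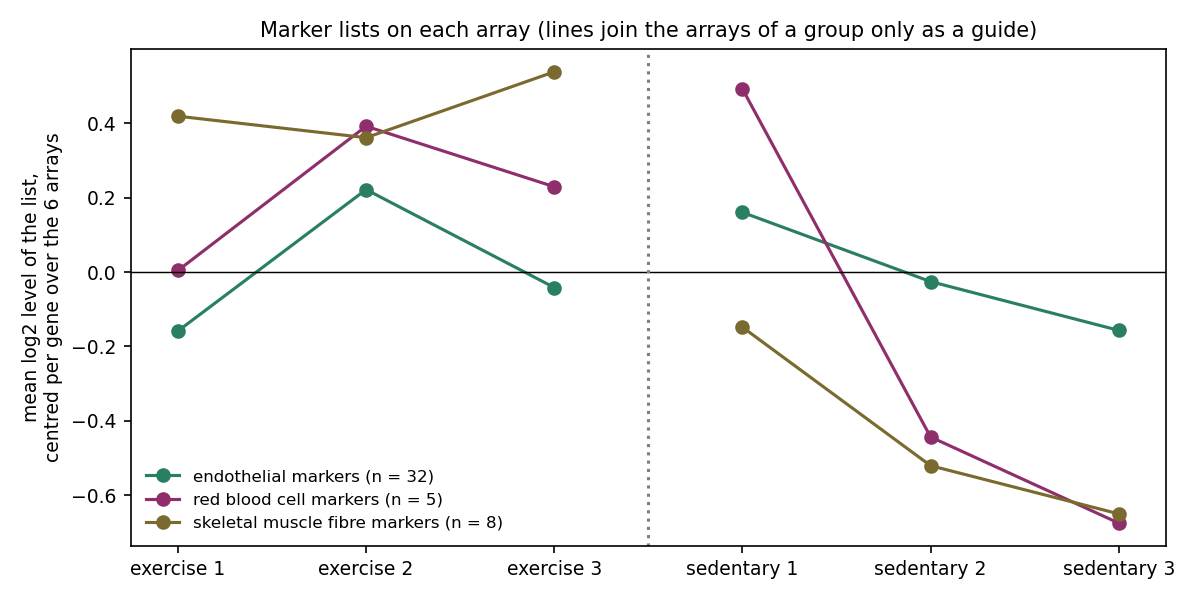
The mean log2 level of 3 marker lists, each gene centred over the 6 arrays, is shown for each array, with lines that join arrays of a group only as a guide. Endothelial markers peak on exercise 2 (0.22) and sedentary 1 (0.16) and range from -0.16 to 0.22 in the exercise group and from -0.16 to 0.16 in the sedentary group, while muscle fibre markers lie above 0 on all exercise arrays and below 0 on all sedentary arrays.

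Other cell types moved with the groups to different degrees. Skeletal muscle fibre markers defined the tissue as labelled and were higher in exercise for 8 of 8 genes. Of these 8, 6 were called, beside 11.5% of all genes called higher. Ckm, muscle creatine kinase, rose 2.82-fold (limma adjusted p = 0.023), the calcium pump gene Atp2a1 2.32-fold, the myoglobin gene Mb 2.29-fold and the skeletal actin gene Acta1 1.91-fold. Their summed level was 4030 to 4570 times the array 75th percentile in the exercise group and 2000 to 2830 times in the sedentary group. The part of this shift in the Vegfa value was not tested, and Vegfa is itself made by muscle fibres.

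Mural cell markers, which coat the vessels, split. Of 11 pericyte and vascular smooth muscle markers, 2 were called higher (Mcam and 1 of the Acta2 probes, which disagree) and 1 was called lower. Of all genes, 11.5% were called higher and 6.12% lower. At an unadjusted p under 0.05, 2 of the 11 were higher and 5 lower, beside 37% of all genes in either direction. The median log2 fold change was -0.18. The summed level was 444 to 506 in the exercise group and 240 to 284 in the sedentary group, a sum led by Acta2. Myh11, the myosin of smooth muscle, was measured at -0.36, -0.43 and -0.41 in the exercise group and at 0.48, 0.68 and 0.49 in the sedentary group and fell by 0.95 on the log2 scale (SE 0.09, limma adjusted p = 0.023). Its other 2 probes gave -0.82 and -0.96. Acta2, smooth muscle actin, rose by 1.32 on the probe that represents it but its other 2 probes gave -0.89 and -0.80, each with a limma adjusted p over all probes of 0.024, so no direction is given for this gene. Mcam, described above, is also in this list.

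Lymphatic markers were lower for 5 of 5 tested genes, beside 47.1% of all genes with a log2 fold change below 0. Of the 5, 1 was called lower, beside 6.12% of all genes. This was Prox1, which fell by 0.97 on the log2 scale (SE 0.25, limma adjusted p = 0.046), and Prox1 is also made by muscle fibres. The summed level of the lymphatic markers was 9.95 to 10.6 in the exercise group and 11.7 to 12.8 in the sedentary group. Flt4 was not well above background on enough arrays to be tested. Of 8 fibroblast markers 0 rose and 0 fell by limma, also at an unadjusted p under 0.05, and Pi16 had the largest value (log2 fold change 0.23, limma adjusted p = 0.410). The 8 macrophage markers gave the same counts, with the largest value at Adgre1 (log2 fold change -0.26, limma adjusted p = 0.590). In summed level, fibroblast markers were at 790 to 885 and 747 to 1010, and macrophage markers at 50.6 to 61.3 and 51.2 to 59.4, in the exercise and sedentary groups.

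Of 6 adipocyte markers 1 was called higher, beside 11.5% of all genes. This was Lep, leptin (log2 fold change 0.35, SE 0.09, limma adjusted p = 0.041). The other 5 (Cidec, Adipoq at -0.96, Plin1 at -0.92, Retn at -0.78 and Cfd at -0.58) had log2 fold changes below 0 that did not pass the test, the list median was -0.85, and the summed level ranged from 135 to 459 in the exercise group and from 296 to 400 in the sedentary group. Hbb-bt had the largest value of the red blood cell genes, with a log2 fold change of 0.55. The part of these cell types in the values of the 10 genes was not tested.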

How the data were processed

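Total RNA of quadriceps from 3 exercise and 3 sedentary AR97Q mice was labelled with Cy3 and hybridised to 1-colour Agilent mouse 8x60K arrays. The authors deposited scanner files from Feature Extraction 12.1.0.3 with spot intensity after background subtraction (processed signal) and a table of values, which equals the processed signal times 1 factor per array (1.33 to 1.88) of unstated origin. Outlier spots were left out, spots of a probe averaged, log2 taken and the 75th percentile of each array subtracted. A probe was kept if well above background on 3 or more of the 6 arrays (32726 of 56605; 15 of the members' 16), and a gene was its kept probe with the highest mean. Transcript identifiers were matched to RefSeq gene symbols, used for names only. The groups were compared with limma 3.58.1 (R 4.3.3), by a two-sided moderated test (lmFit, eBayes) adjusted by Benjamini-Hochberg over 25005 genes and transcripts, after tests on simulated data. With 3 against 3 arrays the smallest exact permutation p is 0.1, so no such test was run. The intervals and p-values rest on 3 mice per group, and their number limits the precision.

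The members and lists were chosen with earlier results of these data known. Named beside the members were the called genes of each list (if more than 4, the 4 of largest absolute log2 fold change; if none, the largest), and the 5 genes most like the endothelial members; 1 list is not reported here. Where labels give replicate numbers, same-numbered arrays did not deviate together (correlations 0.02, 0.08 and 0.04), so the main fit has no block. Alternatives covered scaling, background correction, probe filter and choice, the deposited table, left-out arrays, blocks, weights, variance model and threshold.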

Additional observations from a re-analysis of the deposited data

How the results depend on the processing

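Of 200 member values under alternatives, 139 kept direction and call, 13 lost the call, 11 gained it with the sign kept and 37 changed sign. Some of those 37 were also called: Flt1 was called lower without scaling and with spike-in scaling, and Cdh5 without scaling. Vegfa and Hif1a kept their sign in 20 of 20 alternatives. The cause of these changes was not tested. Without scaling the median of all genes was -0.45, and with spike-in scaling -0.51, so that 5 and 3 members were called lower, 0 and 0 higher, 15 and 14 endothelial markers lower, 0 and 0 higher, and 617 and 356 of all genes higher against 11280 and 11119 lower. Without scaling, Vegfa was at 0.07 (limma adjusted p = 0.671) and, relative to that median, at 0.52. The values without scaling and with spike-in scaling were -0.10 and -0.16 for Vegfb, -0.34 and -0.41 for Kdr, -0.44 and -0.51 for Flt1, -0.26 and -0.33 for Angpt2, and -0.41 and -0.48 for Cdh5. The called members numbered 0 higher with quantile normalization, the mean of probes, the probe of largest SD, the deposited table, the strip or replicate block and the fold minimum, and 2 higher with array weights, trended robust variances and adjusted p under 0.1; 1 was lower with normexp, the deposited table, array weights and adjusted p under 0.1. Endothelial markers called higher were 0 with quantile normalization, the deposited table, either block and the fold minimum and 1 with median scaling; 1 was lower with normexp, the deposited table, array weights and trended robust variances. Of all genes, the higher calls were 1864 with quantile normalization, 6169 with normexp, 9741 without the filter, 1172 with the deposited table, 5124 with array weights, 430 with the fold minimum and 4617 at 0.1, and the lower calls 875 with median scaling, 3201 with the deposited table, 3627 with array weights, 264 with the fold minimum and 3084 at 0.1. With the strip block, 0 genes were higher and 3 lower. The replicate block left 0 genes called in either direction.

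Signs also turned as follows. Flt1 was -0.16 with quantile normalization, -0.063 with normexp, -0.014 with the mean of probes, -0.048 with the probe of largest SD, -0.12 with the deposited table and -0.11 with the strip block. Cdh5 was -0.036, -0.094 and -0.14 with quantile normalization, the deposited table and the strip block, Kdr -0.030 with the deposited table, and Angpt2 -0.35 with the strip block. Angpt1, Tek and Pecam1 were 0.040, 0.011 and 0.062 with median scaling and 0.062, 0.016 and 0.0024 with array weights, and Tek was 0.011 with the strip block. Leaving out 1 array at a time gave 0 to 2 members called higher and 0 lower, 0 to 1 endothelial markers higher, and 0 to 3476 of all genes higher and 0 to 2060 lower; every call of a member was lost except without sedentary 1 (Vegfa 0.62, limma adjusted p = 0.031; Angpt2 0.49). The ranges were 0.45 to 0.62 for Vegfa, 0.31 to 0.49 for Vegfb, 0.026 to 0.29 for Kdr, -0.062 to 0.14 for Flt1, -0.13 to 0.021 for Angpt1, 0.044 to 0.49 for Angpt2, -0.17 to 0.059 for Tek, -0.17 to 0.10 for Pecam1, -0.041 to 0.17 for Cdh5 and -0.35 to -0.21 for Hif1a. Under array weights Vegfa, Vegfb and Hif1a were all called.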

Other observations

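The genes whose levels over the 6 arrays were most like the mean centred level of Kdr, Flt1, Tek, Pecam1 and Cdh5, outside the members and the lists, were Tmem80 (Pearson r = 0.995), Slc14a1, a urea transporter (0.975), Srgn, the proteoglycan serglycin (0.959), Ets1, an ETS family transcription factor (0.956), and Heyl, a Notch target gene (0.956). These are descriptions over 6 arrays out of 25005 genes, and all points share the arrays and their scaling. The mean centred level of the 5 endothelial genes was -0.07, 0.23 and -0.12 on exercise 1 to 3 and 0.03, -0.14 and 0.07 on sedentary 1 to 3. Heyl was at 0.23, 0.84 and 0.07 on the exercise arrays and at 0.23, 0.14 and 0.49 on the sedentary arrays; the choice by likeness fixes that it follows the 5 genes. The 5 endothelial genes followed their own mean unequally, from r = 0.494 for Flt1 to 0.831 for Pecam1.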
